A study of Homo sapiens with 6 samples.

Results

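The subject is human chromosome 7 in T47D breast cancer cells, followed through its A and B compartments from hormone-starved cells to tamoxifen-resistant cells. Its members were the 100 Kb bins of chromosome 7 (hg19) with a non-zero compartment score in all 6 libraries: 1528 of the 1592 bins of the chromosome, and 1528 of 27898 such bins over 22 autosomes and the X chromosome. Of the 64 bins left out, 56 had no score in any library and 8 had one in some libraries; the weakest score among the members was 0.00259 on the scale used below. The longest stretch without scores, 31 bins at chr7:58100001-61200000, was taken as the centromere gap and divided the members into 577 bins of the short arm (7p) and 951 of the long arm (7q).

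Chromatin in the nucleus separates into A compartments, which tend to be gene-rich, early-replicating and active, and B compartments, which tend to be gene-poor, compact and often held at the nuclear lamina. Loci of one type contact each other more often than loci of the other type, even over long distances. A pattern of contacts across the genome can therefore be summarised by one number per bin, the first eigenvector, whose sign separates the types. Chromosome 7 carries the HOXA homeobox cluster, the growth factor receptors EGFR and MET, the kinase BRAF and large families of chemosensory receptors, next to long gene-poor stretches.

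T47D is an established luminal, estrogen receptor-positive line. Of the libraries, 5 came from parental T47D cells starved of hormone for 72 h and then left without hormone (T0) or given 100 nM beta-estradiol (E2) for 1, 4, 16 or 24 h (T1, T4, T16, T24). The other library came from the tamoxifen-resistant T47D line (TamR), which the label calls untreated and which the study's methods describe as kept in charcoal-stripped serum with 100 nM tamoxifen; whether it was starved in the same way was not given. Each condition had 1 library, so there is no replicate check, no p-value is given, and resistance, tamoxifen and culture medium cannot be told apart in TamR. Each library was made from a bulk population by tethered chromatin capture (TCC), a form of Hi-C that ligates HindIII-cut, cross-linked chromatin on a solid surface; a switch in a fraction of the cells and a partial shift in all of them cannot be told apart. The files held scores and no gene expression, so the luminal identity of the cells was not checked here.

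A positive score was read as compartment A and a negative score as B. Scores are unit-length within a library and are printed multiplied by 1000, and "share" means the share of the 1528 bins. Chromosome 7 was chosen by its T0 to TamR change in the A share, so all T0 to TamR values are descriptions. T0 enters every comparison. Confidence intervals are 95% intervals over bins; neighbouring bins move together, so they are too narrow, and the number of contacts behind each score is unknown. Over the 1528 bins, Pearson's r lay between 0.981 and 0.996 in the 10 pairs of parental libraries and between 0.854 and 0.867 in the 5 pairs with TamR.

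Promoters of 4 genes from the switched blocks give the sequence context of genes whose bins changed sides. They (each of 250 bases before the RefSeq start, GRCh38.p14 sequence located by exact match in GRCh37) stand for 3 genes that went from B to A and 1 that went from A to B. CpG dinucleotides, which are dense in CpG-island promoters, are in capitals. IL6 encodes a cytokine, GPNMB a transmembrane glycoprotein, PIP the prolactin-induced protein of apocrine and luminal breast cells, and CYP51A1 lanosterol demethylase of cholesterol synthesis. They lie at chr7:22766569-22766818 (plus strand), chr7:23286144-23286393 (plus), chr7:142828920-142829169 (plus) and chr7:91763792-91764041 (minus).
IL6: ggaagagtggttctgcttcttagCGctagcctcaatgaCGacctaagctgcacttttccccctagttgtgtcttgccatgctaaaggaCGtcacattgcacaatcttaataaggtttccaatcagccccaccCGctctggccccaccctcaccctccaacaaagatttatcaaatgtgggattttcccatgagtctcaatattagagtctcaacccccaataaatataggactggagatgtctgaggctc
GPNMB: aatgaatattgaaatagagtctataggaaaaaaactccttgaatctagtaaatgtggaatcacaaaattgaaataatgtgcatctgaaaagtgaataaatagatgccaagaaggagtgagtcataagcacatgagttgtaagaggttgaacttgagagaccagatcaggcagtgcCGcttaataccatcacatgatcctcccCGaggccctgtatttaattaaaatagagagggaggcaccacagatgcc
PIP: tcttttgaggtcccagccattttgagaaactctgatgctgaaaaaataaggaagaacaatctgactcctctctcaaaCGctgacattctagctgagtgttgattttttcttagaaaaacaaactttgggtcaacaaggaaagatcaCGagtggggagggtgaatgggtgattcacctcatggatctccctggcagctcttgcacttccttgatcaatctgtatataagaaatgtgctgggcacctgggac
CYP51A1: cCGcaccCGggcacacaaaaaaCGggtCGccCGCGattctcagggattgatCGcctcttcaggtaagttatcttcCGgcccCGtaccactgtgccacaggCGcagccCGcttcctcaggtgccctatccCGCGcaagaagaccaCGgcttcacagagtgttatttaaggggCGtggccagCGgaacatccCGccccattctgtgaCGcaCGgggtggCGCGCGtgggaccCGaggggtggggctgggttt
The first 3 hold 4, 2 and 2 CpGs, and the promoter of CYP51A1 holds 23. Of 933 protein-coding genes on the chromosome, 757 had a RefSeq promoter by symbol and 738 of these had a single exact match in GRCh37. The median CpG count was 10 (quartiles 2 and 21) in the 94 promoters of B to A bins, 17 in the 29 of A to B bins, 20 in the 433 that stayed in A, 15 in the 173 that stayed in B, and 18 over all 738. One arm of the estrogen response element, AGGTCA on either strand, was present in 5.32% of the B to A promoters, 17.2% of the A to B promoters and 10.4% of all. Adjoining genes can share a window, and these counts describe letters only.

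The A share of chromosome 7 was higher in TamR than in every parental library. It was 37.0% in T0 (565 bins, interval 34.6% to 39.4%), 37.3% in T1, 38.6% in T4, 37.4% in T16, 34.4% in T24 and 44.8% in TamR (684 bins, 42.3% to 47.3%). The 5 parental values thus spanned 34.4% to 38.6%, and TamR lay outside that span. From T0 to TamR the share rose by 7.79 percentage points (interval 4.30 to 11.2), a net 119 bins. This came from 191 bins that went from B to A (12.5%, against 7.67% over all 27898 bins) and 72 that went from A to B (4.71%, against 6.27%). Because the contrast chose the chromosome, nothing further is read from these shares.

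The gain was a matter of stretches, not of a general shift of the chromosome. Of the 1528 bins, 744 (48.7%) had a higher score in TamR than in T0 and 784 (51.3%) a lower one. The median difference was -0.0972 and the mean 0.350. As a yardstick in place of replicates, 384 bins (25.1%, against 21.8% over all bins) lay above the highest parental score by more than the whole parental range, and 323 (21.1%, against 23.0%) lay below the lowest one by as much. One compartment was kept in all 6 libraries by 1200 bins (78.5%), 454 of them A and 746 B. The same share over all bins was not counted.

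**Figure D1:**
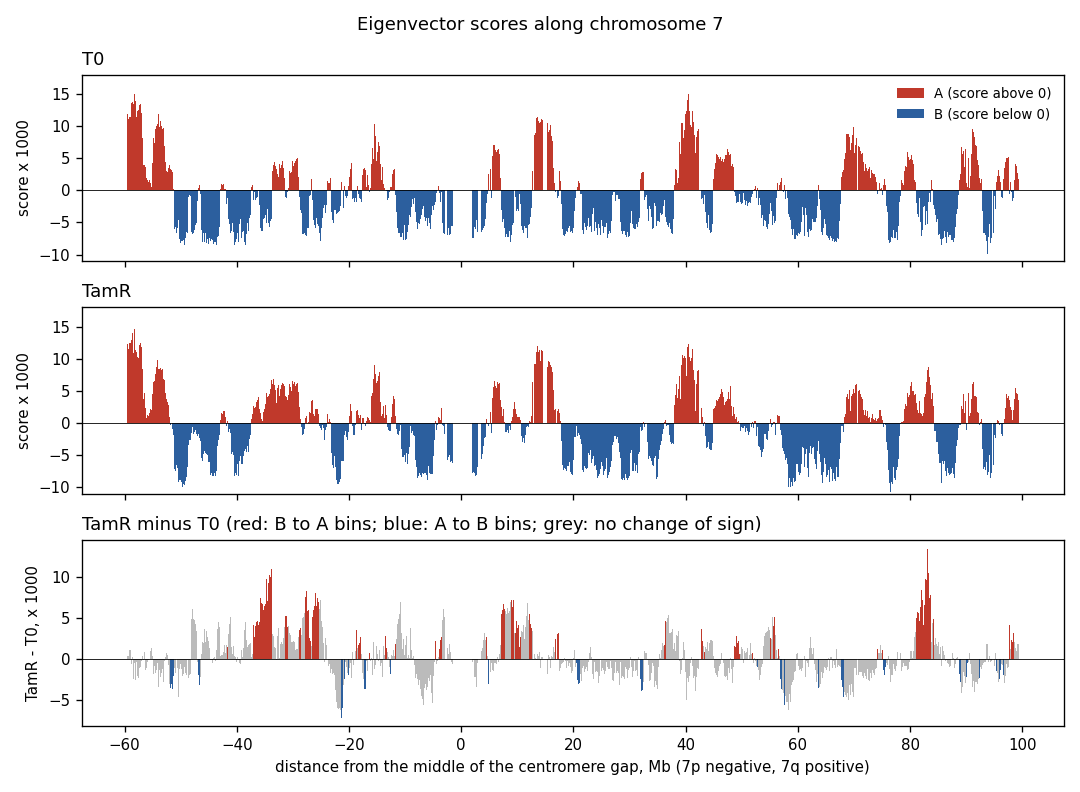
Scores (multiplied by 1000) of the 1528 bins in T0 and TamR and their difference, against the distance in Mb from the middle of the centromere gap; red and blue mark A and B above, and B to A and A to B bins in the lowest panel. In chromosome coordinates, not plotted distances, the widest groups of B to A bins stand between 20 and 40 Mb on 7p and near both ends of 7q. In the same coordinates, 29 of the 102 of 7q are scattered between 80 and 140 Mb. The differences on either side of 0 are spread along the whole chromosome.

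Both arms gained, 7p more than 7q. The A share of 7p was 37.4%, 38.1%, 40.4%, 39.7% and 34.3% from T0 to T24 and 49.4% in TamR. That of 7q was 36.7%, 36.8%, 37.5%, 36.1% and 34.5%, and 42.0% in TamR. The change from T0 was 12.0 points on 7p (interval 6.24 to 17.6, net 69 bins) and 5.26 points on 7q (0.867 to 9.62, net 50 bins), intervals that overlap. The 7q change depended on the processing: with 1 Mb bins it was 1.01 points (interval -12.4 to 14.3). Of the bins that were B in T0, 24.7% on 7p and 16.9% on 7q were A in TamR; of those that were A, 9.26% and 14.9% were B.

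**Figure D2:**
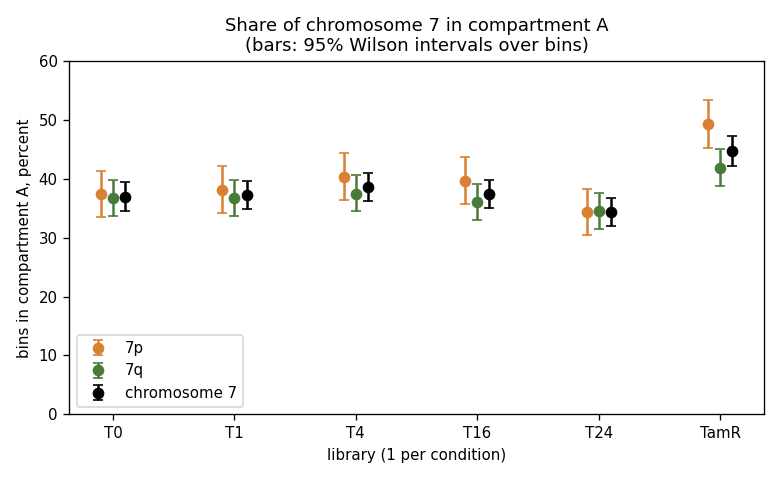
Percentage of bins in compartment A for 7p, 7q and the whole chromosome in each library, with 95% Wilson intervals over bins and 1 library per condition. All 3 series are highest in TamR, at 49.4%, 42.0% and 44.8%, and lowest at T24.

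A few regions held most of the net gain. Between 20 and 40 Mb on 7p the A share was 31.5% in T0, 28% to 35.5% in the E2 libraries and 63.5% in TamR, a net 64 bins (53.8% of 119). Between 60 and 80 Mb on proximal 7q it was 33.3% in T0 and 54.2% in TamR, a net 35 bins. Between 140 and 150 Mb on distal 7q it was 24.7% in T0, 20.6% to 26.8% in the E2 libraries and 50.5% in TamR, a net 25 bins. The window from 100 to 110 Mb added a net 13. Of the 16 windows of 10 Mb 8 had a net loss, summing to 31 bins, so the net gain is smaller than these regions together. The largest loss, 9 bins, was between 80 and 90 Mb, where the A share was 9% in T0 and 0% in TamR.

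The number of compartments on the chromosome, counted as unbroken runs of one sign, was 111 in T0, 97 in T1, 107 in T4, 92 in T16, 81 in T24 and 103 in TamR. A run also ended wherever a bin was left out. The TamR count lay within the parental span. What differed was where the long runs were. The longest A compartment was at the 7p end in all 5 parental libraries (8.4 Mb in T0) and was the 8.9 Mb run at chr7:22200001-31100000 in TamR, which in T0 had been 6 compartments, 3 of A and 3 of B. The longest B compartment was 7.6 Mb in T0, 10.5 to 10.8 Mb in the 4 E2 libraries, where it ran from about 81 to 92 Mb, and 14.7 Mb in TamR, at chr7:77400001-92100000. In T0 the stretch of T1, chr7:80900001-91600000, was also B but for 1 weak A bin, chr7:86800001-86900000 (0.102). The difference in longest B length between T0 and T1 thus rests on the sign of that bin.

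The 191 B to A bins formed 45 blocks of adjacent bins, with a median of 2 bins and 17 single bins. Blocks of 5 or more bins held 67.5% of them, beside 66.9% on the other chromosomes. Of these blocks, 17 with 97 bins were whole T0 compartments that switched, 16 blocks with 75 bins lay at the edge of a T0 compartment, and 12 with 19 bins lay inside one. The longest B to A block had 34 bins, beside 33 on any other chromosome, and the next had 26. These 2 together equal 50.4% of the net gain. Without them the A share changed by 4.02 points, by 6.45 on 7p and by 2.59 on 7q. The 7q interval was then -1.85 to 7.02, which includes 0.

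The longest block, chr7:22500001-25900000 on 7p, was a whole B compartment of T0. Its mean score was -3.61 in T0, -3.17 in T1, -3.22 in T4, -3.17 in T16, -3.92 in T24 and 3.05 in TamR. The 5 parental means lay between -3.92 and -3.17 and TamR lay 6.22 above the highest, and 31 of the 34 bins were B in all 5 parental libraries. In TamR the lowest bin, 0.381, was at the middle of the block and the highest, 6.64, at its right end, next to an A compartment that was already there. It holds the starts of 20 protein-coding genes; the first 10 in order are IL6, STEAP1B, TOMM7, HYCC1, KLHL7, NUP42, GPNMB, MALSU1, IGF2BP3 and TRA2A. The bin with the start of IL6 had -0.336 in T0, -0.730, -0.124, -0.226 and -1.25 in the E2 libraries and 2.70 in TamR. For GPNMB the values were -0.761, -0.189, -0.476, -0.528, -0.613 and 3.54. IGF2BP3, an RNA-binding protein, started in a bin near the border in parental cells (-1.50 to 0.102) that reached 4.10. TOMM7 belongs to the mitochondrial import machinery and NUP42 to the nuclear pore.

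The next block, chr7:140700001-143300000 on 7q, had means of -3.52 in T0, -2.88, -3.30, -3.28 and -3.80 in the E2 libraries and 4.12 in TamR, and 24 of its 26 bins were B in all 5 parental libraries. It was again a whole T0 compartment, and the A compartment before it, with BRAF at its edge, reached through it to 5 Mb in TamR. That length ends at a bin left out for want of a score. The next member, chr7:143400001-143500000, was A in TamR (3.71). BRAF, the MAPK pathway kinase, started in a bin that was A throughout, with 1.34, 1.29, 1.15, 1.15, 0.714 and then 4.59. The block holds the starts of 40 protein-coding genes, among them 8 bitter taste receptors, 5 olfactory receptors and 3 PRSS serine protease genes. The first 10 are MRPS33, TMEM178B, AGK, DENND11, WEE2, SSBP1, TAS2R3, TAS2R4, TAS2R5 and PRSS37. In TamR the scores lay between 1.01 and 3.98 up to chr7:142100000, without a steady climb. Beyond it they lay between 4.05 and 8.70, highest at chr7:142900001-143000000, and the last bin had 5.98. The parental tracks fell and rose together below 0 nearly throughout the block. The 2 largest rises of the chromosome were there: chr7:142700001-142800000 (OR9A2, OR6V1) went from -5.23 in T0 to 8.31, and chr7:142800001-142900000 (PIP, TAS2R39) from -5.19, with -3.83, -4.48, -4.62 and -5.14 under E2, to 8.31. The third, chr7:25700001-25800000, lay in the 7p block and went from -5.77 to 5.35.

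**Figure D3:**
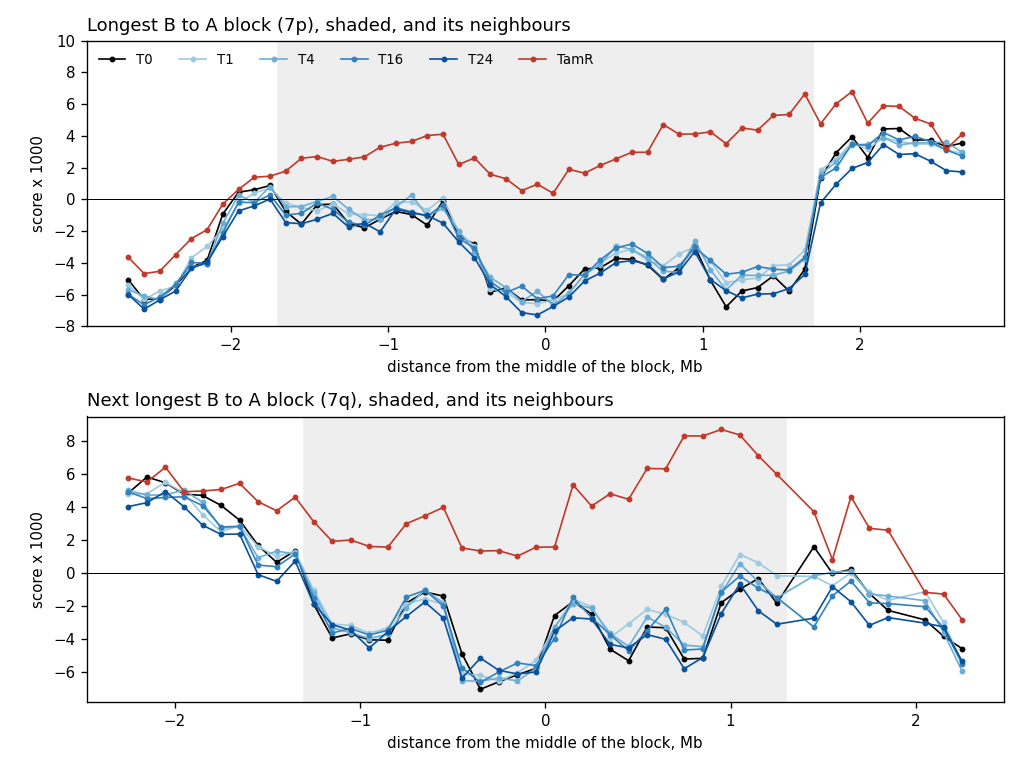
Scores (multiplied by 1000) of single bins in all 6 libraries across the 2 longest B to A blocks (shaded) and their neighbours, against distance from the middle of each block in Mb. The 5 parental tracks run close together, mostly below 0 in the shaded bins, and the TamR track is above 0 in each shaded bin, between 0.381 and 6.64 on 7p and between 1.01 and 8.70 on 7q.

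The other 6 named blocks were shorter and reached lower scores. On 7p, chr7:33100001-34300000 (12 bins, all B in the parental libraries) went from a mean of -4.69 in T0 to 1.86; NT5C3A, RP9, BBS9 (a Bardet-Biedl syndrome gene) and BMPER (a BMP-binding secreted protein) start in it. Close by, chr7:31800001-32900000 (11 bins) went from -4.61 to 1.08, with the starts of PDE1C, LSM5 and AVL9. In TamR these 2 blocks lay in one A compartment of 2.5 Mb, of which 23 of 25 bins had been B in T0.

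On proximal 7q, chr7:69200001-70300000 (11 bins, all B in the parental libraries) went from -2.07 to 1.32 and lies within AUTS2, a long gene tied to neurodevelopment. The start of AUTS2 is in a neighbouring B to A block, in a bin with -3.35 in T0, -3.29, -3.31, -3.46 and -2.52 under E2 and 2.99 in TamR. Beside it, chr7:66700001-67400000 (7 bins) went from -4.32 to 1.70 and chr7:71700001-72300000 (6 bins; CALN1, a neuronal calcium-binding protein, and TYW1B) from -3.87 to 1.15. Both of the latter had less negative means at T24 (-3.33 and -2.60) than at T0, though still B.

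The block at chr7:157600001-158200000, in the body of PTPRN2 (a phosphatase-family protein of secretory vesicles), was unlike the others. Its means were -0.649 in T0, -0.562 in T1, 0.146 in T4, 1.33 in T16, 1.46 in T24 and 1.66 in TamR. It crossed into A during E2, and none of its 6 bins was B in all 5 parental libraries. Of the 8 named blocks, this was the one whose TamR mean stood close to a parental mean.

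**Figure D4:**
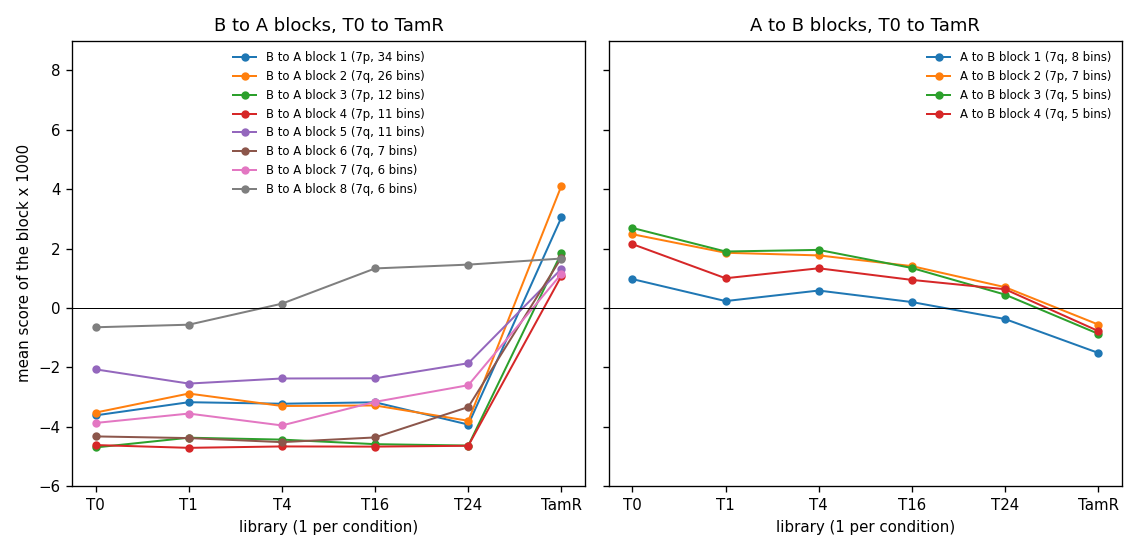
Mean score (multiplied by 1000) of the 8 longest B to A blocks (left) and the 4 longest A to B blocks (right) in each library, 1 library per condition. Of the B to A blocks, 7 stay below 0 in the 5 parental libraries and exceed 1 in TamR, the other rises with E2, and the A to B blocks have lower means at T24 than at T0 and are all below 0 in TamR, the longest already at T24.

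The 72 A to B bins were more scattered. They formed 32 blocks with a median of 1 bin, and the 4 of 5 or more bins held 34.7% of them, beside 52.4% on the other chromosomes. The longest, chr7:80100001-80900000 (8 bins, GNAT3 and SEMA3C), had means of 0.973 in T0, 0.233, 0.588, 0.200 and -0.371 in the E2 libraries and -1.51 in TamR. Next came chr7:7700001-8400000 on 7p (7 bins; RPA3, a replication protein A subunit, GLCCI1 and ICA1), from 2.48 in T0 and 0.701 in T24 to -0.556. The third, chr7:91600001-92100000 (5 bins), had 2.69, 1.90, 1.96, 1.35, 0.451 and -0.867, and holds the starts of CYP51A1, LRRD1, ANKIB1, KRIT1 and GATAD1. The fourth, chr7:127300001-127800000 (5 bins, within SND1, with the start of LRRC4, a synaptic adhesion gene), went from 2.15 in T0 and 0.632 in T24 to -0.773. In all 4 blocks the lowest parental mean was that of T24. The first and the third lie on either side of the stretch that was the longest B compartment in the E2 libraries, and that a single weak A bin broke in T0. Both are inside the 14.7 Mb B compartment of TamR.

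The largest falls lay elsewhere, on 7p. The bin chr7:38300001-38400000, with TARP of the T cell receptor gamma locus, went from 1.29 in T0 (0.425 to 1.37 over the parental libraries) to -5.94. Its neighbour chr7:38200001-38300000 went from -0.387 to -6.74, and chr7:37300001-37400000, in ELMO1, from -1.80 to -8.85, both within B.

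Gene starts were counted by the bin they lie in. Of the 900 genes with a scored bin, 114 were in B to A bins (12.7%, against 5.20% of 19670 genes over all chromosomes), 32 in A to B bins (3.56%, against 4.53%), 551 in bins that were A in both T0 and TamR and 203 in bins that were B in both. The 2 longest blocks held 60 of the 114 (52.6%). The median gene had a score of 2.92 in T0 and 3.62 in TamR, and the median difference per gene was -0.331. Genes in one bin share a score, so genes are not independent. The counts per list below stand beside these shares of all scored genes, and no list was tested.

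Among growth factor receptors and RAS-MAPK genes, 3 of the 11 with a score went from B to A, beside 12.7% of the 900 scored genes. Of the others, 0 went from A to B, 6 were A and 2 B in both. EGFR had -1.87 in T0, -0.797, -0.766, -0.790 and -0.747 under E2 and 0.373 in TamR, a change that just crossed the border. Its bin was a single A bin in TamR, inside what was a B compartment of 76 bins in T0. EPHB6, an Eph receptor without kinase activity, had -3.28 in T0, -3.75 to -2.22 in all parental libraries and 6.34 in TamR. EPHA1 lay near the border in parental cells (-2.30 to 0.614) and reached 7.11. EPHB6 and EPHA1 both start in the 7q block chr7:140700001-143300000, so the count of this list largely follows that block.

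Of 17 secreted growth factors and cytokines, 2 (IL6 and FGL2) went to A, 0 to B, 9 stayed in A and 6 in B. FGL2, a fibrinogen-like secreted protein, had between -1.25 and -0.932 in the parental libraries and 1.91 in TamR. WNT2, a Wnt ligand, lay at the border in the parental libraries (-0.251 to 0.795) and had -3.89 in TamR. The median difference of this list was -0.379.

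Of 15 luminal and estrogen-linked genes, PIP was the one that went to A; 0 went to B, 10 stayed in A and 4 in B. STEAP4, a metalloreductase, was B in all 6 libraries, with -2.22 in T0 and -5.00 in TamR.

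The 17 developmental transcription factors were mostly in B: 12 stayed there, 4 stayed in A and CREB5 went to A, from -1.06 in T0 and between -1.17 and 0.727 in all parental libraries to 4.26. NEUROD6, a neuronal differentiation factor, stayed in B but had -6.79 in T0 and -1.83 in TamR. The 12 scored HOXA genes, of 2 bins, were A in all 6 libraries; the bin of HOXA13 had 4.11 in T0 and 4.16 in TamR.

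Of 9 bitter taste receptors, 8 went to A, and they lie in the 7q block; TAS2R16, outside that block, was B in all 6 libraries. TAS2R38, the receptor for phenylthiocarbamide, had -7.07 in T0, -6.22, -6.58, -6.64 and -5.17 under E2 and 1.33 in TamR. Of 15 scored olfactory receptors, 10 went to A, 5 of them in that block and the rest beyond its right end. These counts follow from the position of 2 gene clusters and rest on 6 and 9 bins.

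Of 39 C2H2 zinc finger genes, 25 stayed in A, 11 in B and 3 went to A. All 3, ZNF713, ZNF107 and ZNF138, were also A at T24: ZNF107 had -2.04 in T0, 0.749 in T24 and 0.596 in TamR. Of 19 very long neuronal and adhesion genes, AUTS2 and CALN1 went to A, 13 stayed in B and 4 in A; THSD7A, within B, had -5.54 in T0 and -1.20 in TamR.

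In the other direction, 1 of 6 genes in a list of 4 semaphorins, the plexin PLXNA4 and the neuronal adhesion gene NRCAM went from A to B and 0 the other way. SEMA3C, a secreted guidance factor, had 1.51, 0.753, 1.24, 0.858 and 0.226 in the parental libraries and -1.63 in TamR. The list's median difference was -2.75. NRCAM had 4.18 in T0 and 1.16 in TamR, and SEMA3A, another secreted guidance factor, had -5.21 in T0 and -8.21 in TamR. Of 14 drug efflux and cytochrome P450 genes, CYP51A1 went to B, from 2.68, 1.70, 2.0, 1.15 and 0.420 to -1.25, with 9 in A and 4 in B. ABCA13, an ABC transporter, stayed in B with -5.89 in T0 and -1.65 in TamR. The efflux pump ABCB1 was B in all 6 libraries, at -0.679 in T0, -2.54 in T24 and -2.43 in TamR.

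The lists without a switched gene were 13 cell cycle and chromatin genes (9 in A, 4 in B), 12 imprinted genes of 7q21 and 7q32 (4 in A, 8 in B) and 8 genes of the 7q22 mucin region, all in A. CDK5, a kinase best known from neurons, had 9.53 in T0, 9.53 to 12.1 over the parental libraries and 6.11 in TamR. EZH2, the Polycomb methyltransferase, had 2.09 in T0 and 0.398 in TamR, below its parental span of 1.92 to 2.36. PPP1R9A, in the imprinted list, had -4.12 in T0 and -7.74 in TamR, and CUX1, a homeobox gene of the mucin-region list, 5.77 and 1.82.

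Few bins of chromosome 7 differed between T0 and the E2 libraries. Relative to T0, the compartment differed in 59 bins after 1 h (3.86%, against 3.16% over all bins), 59 after 4 h (3.86%, against 3.05%), 71 after 16 h (4.65%, against 3.80%) and 87 after 24 h (5.69%, against 5.17%). Each share was slightly above the background, and with single libraries the difference has no test. The change in the A share was 0.327, 1.64, 0.458 and -2.55 points in the same order, and all 4 intervals included 0; the other chromosomes had -2.14 at 24 h. At T24, 63 bins went from A to B (4.12%, against 3.67%) and 24 from B to A (1.57%, against 1.51%).

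The commonest pattern with a change under E2 was A in T0, T1, T4 and T16, B in T24 and A in TamR. It held 22 bins (1.44% of the chromosome). Its share over all bins was not counted, so it is not read as particular to chromosome 7. These 22 bins held the starts of 19 of the 900 scored genes (2.11%). They also held those of 4 of the 15 luminal and estrogen-linked genes, in 3 bins. The following were chosen after their values were seen. AGR2, a secretory-pathway disulfide isomerase, had 1.29, 0.671, 0.758, 0.636, -0.00578 and 0.980. AHR, the aryl hydrocarbon receptor, shared a bin with AGR3 and had 1.04, 0.403, 0.873, 0.00795, -0.0202 and 1.51. MET, the HGF receptor, had 0.808, 1.13, 1.00, 0.839, -0.213 and 1.17, and CAV2 0.654, 0.713, 0.508, 0.241, -0.662 and 1.18. All of these T24 scores were close to the border. Genes were placed by the outermost start of their annotated span, chr7:16955983-17385776 for AHR and chr7:115927434-116148595 for CAV2. Promoters further inside these long spans can lie in other bins, and the count of 4 of 15 rests on this placement.

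The distal end of 7q went the other way. Between 150 Mb and the end of the chromosome the A share was 60.7%, 67.4%, 69.7%, 71.9% and 73.0% from T0 to T24 and 57.3% in TamR. In all, 9 bins were B in T0 and A at all 4 E2 times (0.589%, against 0.624% over all bins), and 6 of them lay there. The longest run, 2 bins in PTPRN2 at chr7:157600001-157800000, had -0.376, 0.0497, 0.830, 1.78 and 1.81, and 1.39 in TamR. A run of equal length without gene starts, chr7:155800001-156000000, had -0.893 in T0, 0.496 to 0.711 under E2 and -1.10 in TamR. The single bin chr7:157300001-157400000 had -0.518, 1.10, 1.72, 2.65 and 3.52, and 3.60 in TamR.

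In the other direction, 14 bins were A in T0 and B at all 4 E2 times (0.916%, against 0.785%). The longest runs had 3 bins each. The run at chr7:12800001-13100000, without gene starts, had 0.422, -0.702, -0.147, -0.878 and -1.69, and -2.04 in TamR. The run at chr7:80100001-80400000, with the start of GNAT3 (gustducin, a taste-signalling G protein subunit), had 0.445, -0.770, -0.369, -0.800 and -1.30, and -1.07 in TamR.

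The bins that separated T0 from TamR had mostly not moved under E2. Of the 191 B to A bins, 150 were B in all 5 parental libraries (78.5% of them, beside 80.1% on the other chromosomes), and these 150 are 9.82% of the chromosome, against 6.13% over all bins. Their complement, 41 bins (21.5%), differed from T0 at 1 or more E2 times. Of the 72 A to B bins, 45 were A in all 5 parental libraries (62.5%, beside 62.9%), which is 2.95% of the chromosome, against 3.94%. The remaining 27 (37.5%, beside 34.4% differing at T24 on the other chromosomes) were all B at T24. Of the B to A bins, 17 were A at T24 (8.90%, beside 11.1%). The median score of the B to A bins was -1.96 in T0, -1.95, -2.11, -2.20 and -2.49 under E2 and 1.56 in TamR. That of the A to B bins was 1.30, then 0.920, 1.10, 0.845 and 0.432, and -0.883 in TamR. Among the 493 bins that were A in both T0 and TamR, 39 (7.91%) differed at some E2 time, beside 4.03% on the other chromosomes. Among the 772 that were B in both, 26 (3.37%) did, beside 3.39%. Switched bins thus differed under E2 more often (21.5% and 37.5%) than bins that kept the same T0 compartment.

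Among the T0 scores, which with those of TamR define the classes, the median absolute T0 score was 1.96 in B to A bins and 1.30 in A to B bins, beside 5.59 in bins that stayed in B and 4.50 in those that stayed in A. Median GC, which the classes did not use, was 40.8% in B to A and 38.9% in A to B bins, 44.3% in A and 37.2% in B. Gene starts numbered 5.97 per Mb in B to A bins, 4.44 in A to B, 11.2 in A and 2.63 in B. HindIII sites (AAGCTT), which set how finely a bin is cut, had medians of 30, 30, 25 and 31 per bin. Over the 1528 bins, which share libraries and neighbours, r of the TamR minus T0 difference was 0.0166 with GC and -0.00328 with HindIII sites; for T24 minus T0 it was 0.176 and -0.0351.

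Compared with the other chromosomes, chromosome 7 was among the 5 with the largest rise. Its 7.79 points ranked 5 of 23, after chromosomes 19 (11.8), 9 (9.51), 20 (8.71) and 16 (7.82), and the next, chromosome 6, had 3.34. The 22 other chromosomes together changed by 1.04 points, a difference of 6.75 points. Chromosome 7 ranked second in the share of bins going from B to A, after chromosome 9 (12.7%), and 16 of 23 in the share going from A to B. It started low, with the sixth lowest A share in T0, and had the ninth lowest in TamR.

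**Figure D5:**
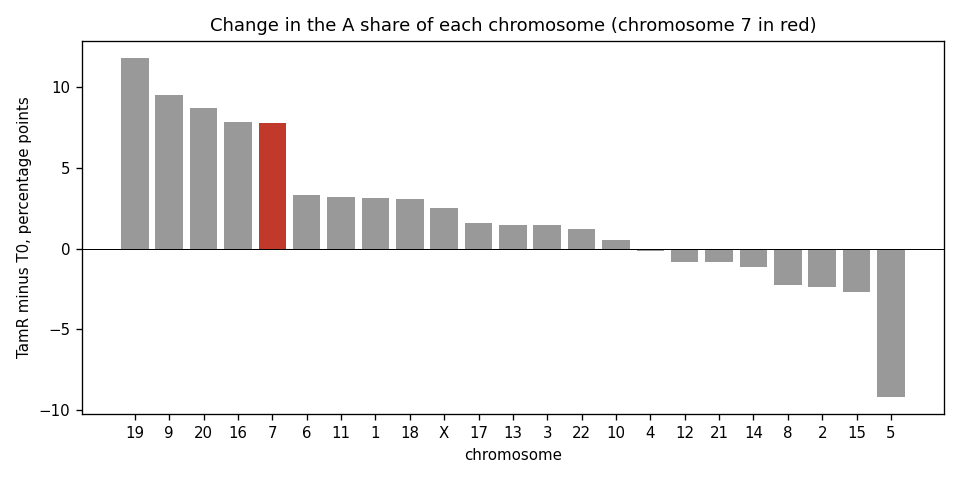
Change in the percentage of bins in compartment A from T0 to TamR for each chromosome, in percentage points, with chromosome 7 in red. Chromosome 7 and 4 others lie between 7.79 and 11.8, a gap separates them from the sixth at 3.34, and chromosome 5 has the largest fall, -9.22.

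Without bins whose absolute score was under the 10th percentile in any library, 79 B to A and 5 A to B bins were left and the A share changed by 6.68 points. At the 25th percentile the counts were 20 and 0 and the change 2.44 points; such a filter removes bins that cross the border by construction. The direction of the change in the A share was the same under each alternative tried.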

How the data were processed

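TCC libraries from 6 T47D conditions, 1 library each, were analysed. The deposited values are eigenvector scores per 100 Kb bin of hg19. The authors aligned paired reads to hg19 with bowtie2, filtered, binned and iteratively corrected them with HiCLib, removed contacts within chromosomes and took the first eigenvector of the contacts between chromosomes; whether replicate cultures of T47D were pooled was not stated. Contact counts were not used here, so the depth per sample is unknown.

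Groups came from the labels. Scores were multiplied by 1000, and bins with a score of 0 in any library were left out. A and B were assigned by sign, and adjacent bins with the same change formed a block. Intervals are Wilson (single shares) or Newcombe (changes), at 95%, and cover bins only. Genes are protein-coding genes of GENCODE v44lift37, placed by their start; lengths of all 23 chromosomes matched GRCh37. The 8 longest B to A and 4 longest A to B blocks (ties by the larger mean change), up to 10 genes per block in genome order, 14 gene lists, the 3 largest rises and falls and the longest E2 runs were described. Within lists, switched genes were named first, then those with the largest changes; ABCB1, EZH2, HOXA13 and the genes of T24 bins were chosen after their values were seen. The members and lists were chosen with earlier results of these data known. Python 3.11.15, numpy 2.4.6 and pandas 2.3.3 were used, and the counting was tested on simulated tracks with planted blocks. Alternatives covered the border, weak scores, bin size, reference library, chromosome ends, ranks and joining of blocks.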

Additional observations from a re-analysis of the deposited data

How the results depend on the processing

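No paired analysis was possible because the libraries are single, 1 for each condition. For 12 results, 125 values were recomputed, 119 by the settings named under processing. The other 6, with both longest blocks left out, were chosen after seeing the data. Of the 125, 97 stayed within the interval of the reported value or, for counts, within 1.5 times of it. The remaining 28 moved, and why they moved was not tested. Only changes in the A share, and their difference from the other chromosomes, have a sign that can reverse, and 0 of them did. Dropping the bins that had, in some library, an absolute score below its 10th percentile (1108 bins left on chromosome 7) gave 79 B to A and 5 A to B bins, a longest block of 22 bins, 100% of B to A bins in B in all 5 parental libraries and 0% of bins changed at T1, T4, T16 and T24. At the 25th percentile (821 bins left), the change in the A share was 2.44 points for the chromosome and 5.04 for 7p, its difference from the other chromosomes 1.37 points, with 20 B to A and 0 A to B bins, a longest block of 13 bins, 100% in B in all parental libraries and again 0% changed at each E2 time; bins that cross the border have weak scores by construction, so this filter removes them first. With 1 Mb bins, 7p changed by 18.6 points, the shares changed under E2 were 0.633%, 1.27%, 2.53% and 3.80%, and 88.9% of B to A bins were B in all parental libraries. The 7q change was then 1.01 points (interval -12.4 to 14.3). Its interval also included 0 with 500 Kb bins (3.57 points), ranks (2.73) and the 25th percentile filter (1.10), but not with any other reference library. Without both longest blocks the change was 4.02 points, its difference from the other chromosomes 2.98 points and the longest block 12 bins. With another parental library, or the parental majority, as the reference, all values stayed within those limits. Without replicate libraries or contact counts, differences near 0 between parental libraries cannot be separated from library error.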

Other observations

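Bins that kept their compartment from T0 to TamR also differed in score between these libraries. On 7q, the 297 bins that were A in both had a median difference of -1.08. Of these, 78 lay below and 20 above the parental values by more than the parental range. On 7p the 196 such bins had a median difference of 0.179, with 24 below and 37 above. Over all bins of any class, 23.0% lay below and 21.8% above by as much. On the other chromosomes, bins that were A in both had a median difference of -0.363. The longest run of lower scores, chr7:127800001-129800000 (20 bins, all A), had means of 7.52 in T0, 7.0, 6.87, 6.72 and 6.75 under E2 and 3.68 in TamR; LEP, IRF5, FLNC and SMO, the Hedgehog signal transducer, start there. It adjoins the A to B block within SND1. A run of 9 A bins at chr7:150600001-151500000, with KCNH2, NOS3 and CDK5, had 7.94 in T0 and 4.87 in TamR. Within B, chr7:37200001-38300000 (11 bins; ELMO1 and SFRP4, a secreted Wnt antagonist) had -3.05 in T0, -3.34 to -2.13 over the parental libraries and -8.74 in TamR, and chr7:117400001-118700000 (13 bins) had -3.23 and -8.0.

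Several B stretches had scores nearer to 0 in TamR without reaching A. The longest, chr7:96200001-97500000 (13 bins), holds DLX5 and DLX6, homeobox genes of limb and craniofacial development, and had means of -5.60 in T0, -5.88 to -5.47 over the parental libraries and -1.95 in TamR. FOXP2, a forkhead transcription factor, started in a bin with -4.59 in T0 and -1.78 in TamR, within a run of 11 bins at chr7:113500001-114600000. Runs of 12 bins at chr7:20800001-22000000 (SP8 and SP4, zinc finger transcription factors) and 11 bins at chr7:11400001-12500000 (THSD7A) belonged to the same class. The genes in both paragraphs were chosen after their values were seen, and these are values of 1 library per condition with no test.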
